A study of Rattus norvegicus with 8 samples.

Results

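The Dlk1-Dio3 cluster is the large imprinted miRNA locus of rat chromosome 6. Its members were taken as every miRNA on the array with a probe mapped to chromosome 6 (build rn4, per the file headers) within 300 kb of the miR-134 probe, on either strand and with star forms included. The rule found 99 of the 677 miRNAs on the array, measured by 230 of its 1644 miRNA probes. They lay over 283.8 kb, chr6:134141381-134425147, and a window of 500 kb found the same 99.

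In mammals the locus is imprinted: the protein genes Dlk1, Rtl1 and Dio3 are read from the paternal chromosome, and the noncoding RNAs Meg3 (Gtl2), Rian and Mirg, which carry the miRNAs, from the maternal one. Its miRNAs are known mainly from brain, placenta and embryonic muscle, and many fall after birth in mouse tissues. In heart, miR-410 and miR-495 are known as promoters of proliferation in neonatal rat cardiomyocytes, acting on Cited2.

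The study set cardiomyocytes of rats 10 days after birth (P10) against cardiomyocytes of newborn rats (P0), with 4 arrays for each age. Total RNA was labelled with 1 dye (Cy3) and hybridised to an Agilent rat miRNA array. The sample labels give the younger age as postnatal day 0, while the title and design text of the series give it as day 1. The labels name neither a strain nor a genotype nor an agent for either age, give the animals as male or female, and state that the P10 cells divide less than the P0 cells. They do not say whether the 4 arrays of an age came from separate animals, so p-values measure the spread between these arrays, which may be technical.

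By position the members fell into 3 groups. The first held 17 members, spread over 68.9 kb, and comprised rno-miR-770, miR-770*, miR-673, miR-673*, miR-493*, miR-493, miR-337*, miR-337, miR-3544, miR-540*, miR-540, miR-665, miR-341, miR-1188-5p, miR-1188-3p, miR-370* and miR-370. The second was the block opposite Rtl1, with 10 members over 4.71 kb: miR-431, miR-433*, miR-433, miR-127*, miR-127, miR-3543, miR-434*, miR-434, miR-136 and miR-136*. The third was the block of miR-379 to miR-410, with 72 members over 36.9 kb. It comprised miR-379, miR-379*, miR-411, miR-411*, miR-3563-5p, miR-299, miR-3563-3p, miR-299*, miR-380, miR-380*, miR-3579, miR-323*, miR-323, miR-758*, miR-758, miR-329*, miR-329, miR-494*, miR-494, miR-1193-5p, miR-1193-3p, miR-666, miR-666*, miR-543, miR-543*, miR-495, miR-667*, miR-667, miR-376c*, miR-376c, miR-376b-5p, miR-376b-3p, miR-376a*, miR-3595, miR-376a, miR-300-5p, miR-300-3p, miR-381*, miR-381, miR-487b*, miR-487b, miR-539, miR-3576, miR-539*, miR-544*, miR-544, miR-3592, miR-382, miR-382*, miR-134, miR-134*, miR-668, miR-485, miR-485*, miR-154, miR-154*, miR-496*, miR-496, miR-377*, miR-377, miR-541, miR-541*, miR-409-5p, miR-3581, miR-409-3p, miR-412*, miR-412, miR-369-5p, miR-3578, miR-369-3p, miR-410* and miR-410.

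The 12 members detected on any array are given by their mature sequences, since every member's level rests on them, and miR-495 and miR-410 are added for their known part in heart. Sequences are from RefSeq (assembly GRCr8), written 5′ to 3′, and capitals mark the seed, bases 2 to 8, the stretch by which a miRNA recognises its targets.
miR-770*: gUGGGCCUgacguggag
miR-127: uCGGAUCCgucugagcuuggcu
miR-434: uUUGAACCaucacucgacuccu
miR-370: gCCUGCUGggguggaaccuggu
miR-494: uGAAACAUacacgggaaaccucu
miR-376b-3p: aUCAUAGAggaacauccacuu
miR-487b: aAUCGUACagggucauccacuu
miR-539: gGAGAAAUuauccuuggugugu
miR-382: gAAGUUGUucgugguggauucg
miR-134: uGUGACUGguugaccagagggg
miR-496*: aGGUUGUCcaugguguguuc
miR-409-3p: aAUGUUGCucggugaacccc
miR-495: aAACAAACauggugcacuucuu
miR-410: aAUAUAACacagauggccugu

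Mature sequences were matched for 97 of the 99 members, among them all 12 that were detected, by the reverse complement of the probe. The 97 held 90 different seeds, and 6 seeds were shared, by 13 members in all. No 2 of the 12 detected members shared a seed. The only one of them with a seed mate in the cluster was miR-496*, whose GGUUGUC was also the seed of miR-494* and miR-410*, neither of them detected.

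Several arrays stood apart. The scaling signal, defined with the levels, was 580 to 1276 units on the P10 arrays and 806 to 1326 units on P0 replicates 2 to 4. On P0 replicate 1, the dim array, it was 116 units, and that array detected 73 miRNAs against 157 to 187 on the other 7. P10 replicates 1 and 2 resembled each other (r = 0.998 over 297 probes detected on both), as did replicates 3 and 4 (r = 0.995 over 314 probes), while replicates 1 and 3 were less alike (r = 0.891 over 287 probes). The summed scaled signal of 6 fibroblast and mesenchymal miRNAs was 27.4 and 27.9 on P10 replicates 1 and 2 and 5.996 and 6.03 on P10 replicates 3 and 4; the P0 arrays had sums of 5.61 to 9.09. Most of that sum was miR-21, with miR-199a-3p, miR-199a-5p and miR-214 higher on the same 2 arrays, while miR-145 and miR-143 of the list were lower on P10 replicates 1 and 2 than on 3 and 4. The muscle sum was 10.2 and 9.32 on P10 replicates 1 and 2 and 19.9 and 20.7 on replicates 3 and 4, with 11.7 to 17.1 on the P0 arrays. The leukocyte sum was 0.219 and 0.213 on P10 replicates 1 and 2 and 0.0755 and 0.0773 on replicates 3 and 4, with 0.0521 to 0.194 on the P0 arrays. Of that list miR-150 went the other way, being lower on P10 replicates 1 and 2 than on 3 and 4. As for the cell type label, the muscle miRNAs miR-1, miR-133a, miR-133b, miR-208 and miR-499 were each detected on at least 5 arrays, as was the probe of miR-206, whose signal is taken up further with miR-539. Of 8 neural miRNAs miR-128 and miR-218 were detected, and miR-124 and miR-9 on no array; of 6 epithelial miRNAs none was. All arrays were on 1 slide, with each age in a row of its own, so age and slide row cannot be told apart.

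Most of the cluster was below detection at both ages. A miRNA counted as detected on an array where any of its probes had a share of at least 0.5 of its unflagged spots marked by the scanner as well above background. Detection at P10 reached 12 of the 99 members, and at P0 6 of them, the 6 being among the 12. The gap was narrower under looser calls, at 14 and 11 members where 1 spot well above background was enough, and at 15 and 12 by the scanner's call on the total signal per miRNA. Stricter calls gave 9 and 4 members where all unflagged spots of a probe had to be well above background. They gave 8 and 4 where all probes of a miRNA had to be detected. Over all 677 miRNAs on the array, 196 (29%) were detected at P10 and 181 (26.7%) at P0. On at least 1 of the 8 arrays, 12 members (12.1%) were detected, against 204 of all miRNAs (30.1%) and 192 of the 578 miRNAs outside the cluster (33.2%).

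Detection was wider at P10 than at P0 in the cluster. Single P10 arrays detected 9, 7, 10 and 7 members, and single P0 arrays 2, 6, 4 and 3, so by this call the ages did not overlap. The lowest of the P0 counts was that of the dim array. The same counts over all miRNAs were 171, 170, 187 and 169 at P10 and 73, 176, 157 and 158 at P0, where the ages overlapped. Members detected at P10 and on no P0 array numbered 6 of 99 (6.06%), against 23 of all 677 miRNAs (3.4%) and 17 of the 578 outside the cluster (2.94%). Of these 6 members, 4 were flagged as detected on a P0 array in the authors' deposited table, which calls each miRNA by its total signal. They were miR-127, miR-434, miR-376b-3p and miR-539. By those flags the array counts of the ages were not apart, since as many members were flagged on P0 replicate 2 as on P10 replicate 4. No member was detected only at P0, against 8 of all miRNAs (1.18%). On all 4 arrays of the age, 6 members were detected at P10 and 2 at P0, against 157 (23.2%) and 71 (10.5%) of all miRNAs. On all 8 arrays 2 members were detected, miR-487b and miR-494, against 70 of all miRNAs (10.3%). The difference between the ages in the number of members was not tested, since the members were chosen with results of these data known. Without P10 replicates 3 and 4 the P10 count was 9, and without P10 replicates 1 and 2 it was 10.

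**Figure D1:**
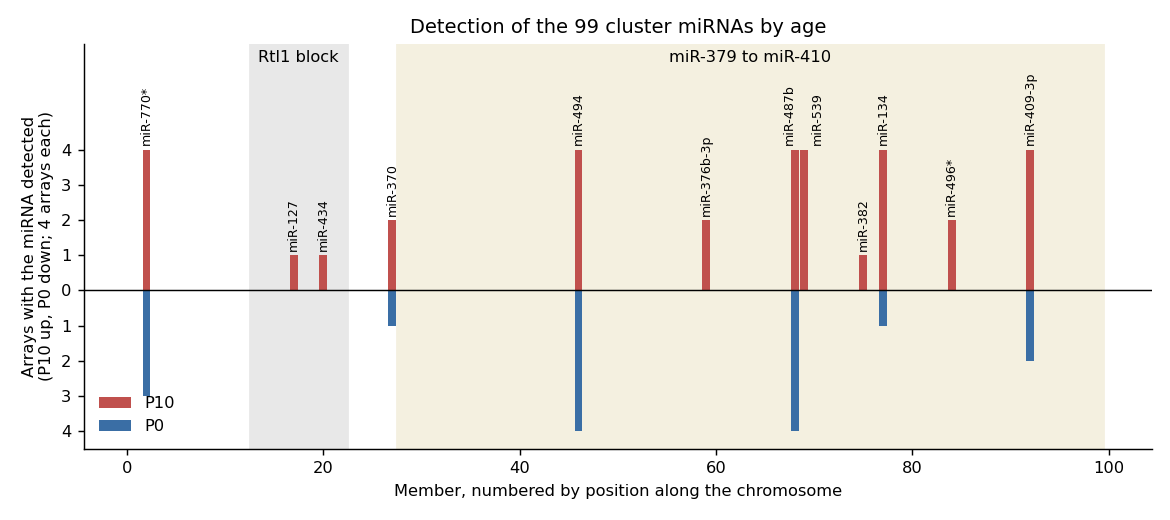
Number of arrays, of 4 for each age, on which each of the 99 members was detected; members run left to right by position, P10 is drawn upward and P0 downward, and shading marks the block opposite Rtl1 and the block of miR-379 to miR-410. The 12 detected members are named; 6 of them have a P10 bar and no P0 bar, and none has a P0 bar alone.

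Within the locus, the block of miR-379 to miR-410 held 8 of the 12 detected members, the block opposite Rtl1 held miR-127 and miR-434, and the remaining group held miR-770* and miR-370. Of 63 members without a star in their name 10 were detected, and of 36 star forms 2 were, miR-770* and miR-496*. RefSeq places the hairpins of 87 members on the plus strand, and all 12 detected members were among them. The 10 members on the minus strand (miR-3544, miR-3543, miR-3563-5p, miR-3563-3p, miR-3579, miR-3595, miR-3576, miR-3592, miR-3581 and miR-3578) were detected on no array. The 87 undetected members, on 203 probes, gave signals between -9.22 and 12.2 units, where the signal is the scanner's background-subtracted fluorescence and can lie below 0.

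Both miRNAs known from cardiomyocyte proliferation were below detection. The miR-410 probe (chr6:134425130-134425147) read -3.03, -2.72, -1.28 and -1.74 units on P10 arrays 1 to 4, against -3.42, -0.677, -3.29 and -1.03 units on P0 arrays 1 to 4. The miR-495 probe (chr6:134399269-134399287) read -4.44, -2.07, -2.23 and -2.34 units on P10 arrays, against -2.07, -1.82, -2.17 and -3.47 units on P0 arrays. All 16 values were under 0, so no level can be given for either miRNA at either age, and a difference between the ages was not detectable. The lowest signal of any detected probe lay between 11.7 and 19.3 units on the 8 arrays.

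Levels were compared for the 6 members that every array of 1 age or both detected. The signal of each array was divided by its scaling signal, the 75th percentile of the 111 probes that no array failed to detect. A floor of 0.0169 (log2 of -5.89) was set on the scaled values, and the log2 values were fitted with limma over all 158 miRNAs that met the same condition. Differences are P10 minus P0 on the log2 scale. No member passed an adjusted p of 0.05 in either direction, and none had an unadjusted p under 0.05. Over all 158 miRNAs, 7 (4.43%) were higher at P10, 7 (4.43%) were lower, 14 (8.86%) in either direction, and 44 (27.8%) had an unadjusted p under 0.05. The median difference was -0.17 over the 6 members and 0.03 over all 158 miRNAs. It was above 0 for 2 of the 6 members and for 81 of the 158 miRNAs (51.3%). Without P0 replicate 1 both medians changed sign, to 0.21 over the members and -0.17 over all, with 4 of the 6 members above 0.

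The value of miR-770*, cut from the far arm of a hairpin inside the Meg3 gene (probe at chr6:134141410-134141422), was 21.9, 18.97, 28.6 and 29.5 units on P10 arrays 1 to 4, against 6.13, 52.2, 25.8 and 37.1 units on P0 arrays 1 to 4. The ages overlapped, and the lowest value was that of the dim P0 array. Scaled, its log2 level was -5.18 ± 0.31 at P10 and -4.71 ± 0.35 at P0 (SD, n = 4 each), a difference of -0.47 (SE 0.26, 95% interval -1.07 to 0.12; adjusted p = 0.255, limma). Without P0 replicate 1 the difference was -0.50 with a smaller error (adjusted p = 0.016, limma), in a fit where 25 and 46 of 168 miRNAs were called higher and lower.

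The miRNA miR-494 was detected on all 8 arrays (probe at chr6:134394925-134394938). Its signal was 197, 166, 197 and 441 units on P10 arrays 1 to 4, against 119, 230.3, 162 and 204 units on P0 arrays 1 to 4. P10 replicate 4 was the highest of all 8, and the other 7 overlapped between the ages. The scaled log2 level was -1.94 ± 0.52 at P10 and -1.83 ± 1.25 at P0 (SD, n = 4 each). The difference of -0.11 (SE 0.59; adjusted p = 0.917, limma) had a 95% interval from -1.45 to 1.23. It turned to 0.33 without P0 replicate 1 (adjusted p = 0.344, limma), the array on which its scaled level, at a log2 of 0.05, stood above the -2.53 to -2.32 of the other P0 arrays.

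For miR-487b, the other member detected on all 8 arrays (probe at chr6:134408263-134408279), P10 arrays 1 to 4 gave 131, 111, 143 and 159 units, against 23.1, 214, 149.8 and 196 units on P0 arrays 1 to 4. The dim array was lowest, and P0 replicates 2 and 4 lay above every P10 array. Scaled log2 levels were -2.71 ± 0.43 at P10 and -2.49 ± 0.14 at P0 (SD, n = 4 each), a difference of -0.23 (SE 0.26, 95% interval -0.81 to 0.35; adjusted p = 0.572, limma). Its P10 spread followed the array pairs, with log2 levels of -2.32 and -2.38 on replicates 1 and 2 and of -3.16 and -2.997 on replicates 3 and 4. The difference turned to 0.12 without P10 replicates 3 and 4 and to 0.30 without scaling, and passed the test in neither.

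The miRNA miR-539, known in mouse cardiomyocytes for repressing prohibitin 2, was detected at P10 alone. Its probe (chr6:134408928-134408946) gave 35.8, 24.9, 32.7 and 20.5 units on P10 arrays 1 to 4, against 2.92, -0.732, 10.2 and 4.58 units on P0 arrays 1 to 4. Every P10 array was above every P0 array before scaling, though the share of all probes for which that held was not counted. Detection was on 4 of 4 P10 arrays and on no P0 array. After scaling the ages overlapped, with 1 P10 array and 3 P0 arrays at the floor. The log2 level was -4.98 ± 0.76 at P10 and -5.74 ± 0.29 at P0 (SD, n = 4 each), and the difference 0.77 (SE 0.38, 95% interval -0.10 to 1.63; adjusted p = 0.221, limma). That value moves with the floor, being 0.26 with the floor doubled and 1.36 with it halved. Set against the lowest detected signal of each P0 array, or its own where higher, miR-539 was 1.11-fold higher at P10. That is not a strict bound, since P10 replicate 4 was counted at the floor of 0.0169, above its own scaled 0.0161. Without P0 replicate 1 and with the scaling redone, miR-539 was at least 1.68-fold higher. In the fit without P10 replicates 3 and 4 the difference was 1.26 (adjusted p = 0.00439, limma), with 50 and 26 of 167 miRNAs called higher and lower. The P10 arrays left in that fit were an alike pair over all probes (r = 0.998), so no difference between the ages is drawn from that p-value. The part of their spread in it was not tested. Without P10 replicates 1 and 2 the difference was 0.21 (adjusted p = 0.770, limma).

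The miRNA miR-134, first known from dendrites of rat neurons, where it acts on Limk1, was detected on 4 P10 arrays and on 1 P0 array (probe at chr6:134415650-134415660). Its signal was 18.5, 15.6, 23.6 and 21.4 units on P10 arrays 1 to 4, against 0.408, 14.2, 7.48 and 11.3 units on P0 arrays 1 to 4. The ages did not overlap, before or after scaling, and miR-134 was the only one of the 6 tested members for which that held after scaling; over all tested miRNAs 41 of 158 (25.9%) did not overlap. All 4 P0 arrays were at the floor, and P10 replicate 4, at a log2 of -5.89, lay just above it, so the difference of 0.39 (SE 0.24, 95% interval -0.15 to 0.92; adjusted p = 0.298, limma) depends on the floor. With the floor doubled no difference was left. With the floor halved the difference was 1.22 (adjusted p = 0.0185, limma), and with a normexp background it was -0.21 (adjusted p = 0.924, limma). It also passed without P0 replicate 1, at 0.31 (adjusted p = 0.0439, limma), where 25 and 46 of 168 miRNAs were called higher and lower. Without P10 replicates 3 and 4 it passed at 0.55 (adjusted p = 0.00199, limma), where 50 and 26 of 167 were called. The P10 arrays left in that fit were an alike pair (r = 0.998). With all 8 arrays the floored P0 values had an SD of 0. The passes with arrays left out may thus reflect a small spread, and no difference between the ages is drawn from them.

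For miR-409-3p (probe at chr6:134424557-134424569) the signal varied little, at 22.4, 18.0, 20.4 and 18.4 units on P10 arrays 1 to 4, against 14.9, 20.5, 19.8 and 18.7 units on P0 arrays 1 to 4. It was detected on 4 P10 and 2 P0 arrays. The scaled log2 level was -5.42 ± 0.55 at P10 and -5.02 ± 1.40 at P0 (SD, n = 4 each), with 2 arrays of each age at the floor. The difference of -0.39 (SE 0.65, 95% interval -1.87 to 1.08; adjusted p = 0.697, limma) turned to 0.11 without P0 replicate 1 (adjusted p = 0.735, limma).

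**Figure D2:**
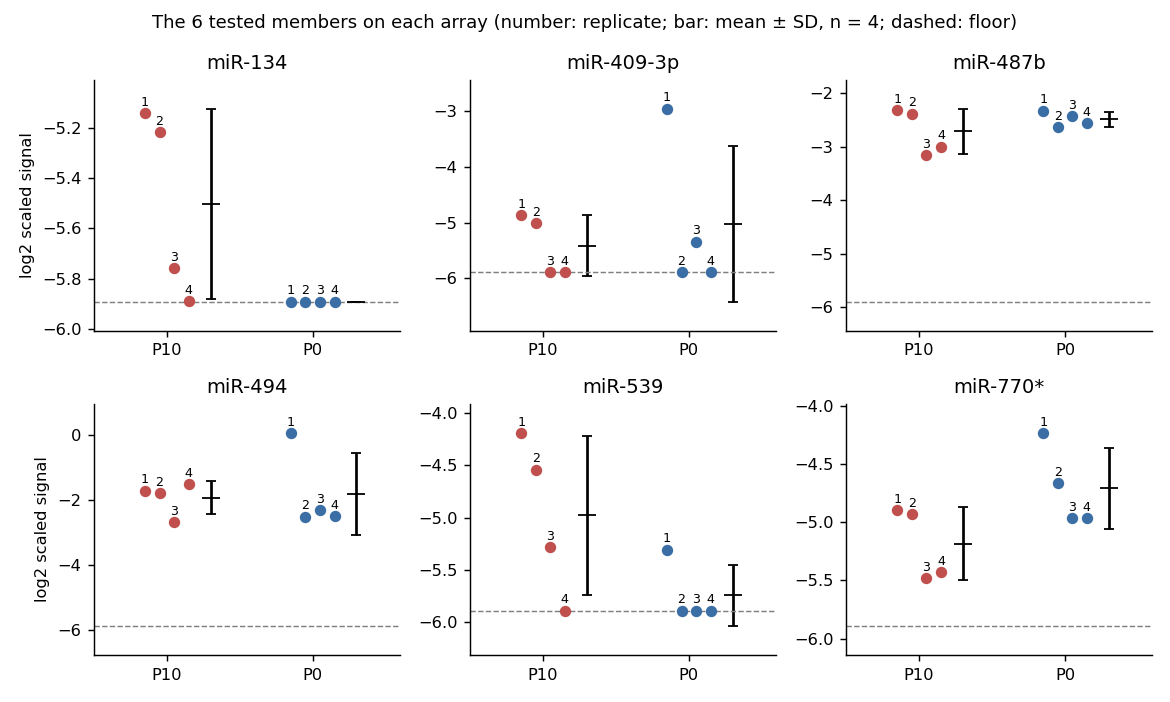
Log2 scaled signal of the 6 tested members on each array, P10 at the left and P0 at the right of each panel; numbers beside the points are replicates, bars are the mean and SD (n = 4) and the dashed line is the floor at -5.89. P10 replicates 1 and 2 lie above replicates 3 and 4 in 5 of the 6 panels, all but that of miR-494, and P0 replicate 1 is the highest P0 array in every panel but that of miR-134, where all P0 arrays are at the floor.

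The other 6 detected members reached detection on 1 to 3 arrays, and 5 of them on P10 arrays alone. In the block opposite Rtl1, miR-127 and miR-434 are known in mouse for cutting the Rtl1 message, to which they are fully complementary. The miR-127 probe gave 7.29, 7.72, 13.8 and 14.7 units on P10 arrays 1 to 4, against 0.424, 13.5, 8.60 and 12.6 units on P0 arrays 1 to 4. The miR-434 probe gave 7.60, 6.42, 14.6 and 12.2 units on P10 arrays, against -1.72, 13.2, 6.78 and 10.8 units on P0 arrays. Each of these 2 miRNAs was detected on P10 replicate 3 alone, and their values overlapped between the ages.

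The miRNA miR-370, downstream of that block, gave 10.6, 9.56, 16.4 and 23.3 units on P10 arrays 1 to 4, against 2.83, 15.1, 8.84 and 11.99 units on P0 arrays 1 to 4. It was detected on P10 replicates 3 and 4 and on P0 replicate 2, and the ages overlapped. As for miR-494, its highest value was on P10 replicate 4.

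The miRNA miR-376b-3p belongs to the miR-376 family, whose transcripts are known for A-to-I editing in mouse brain. It gave 24.8, 25.02, 10.8 and 9.51 units on P10 arrays 1 to 4, against -2.81, 11.2, 5.89 and 9.11 units on P0 arrays 1 to 4. It was detected on P10 replicates 1 and 2 alone, and P10 replicates 3 and 4 lay within the range of the P0 arrays. The same 2 arrays were those with the summed fibroblast and mesenchymal signal of 27.4 and 27.9, carried mainly by miR-21, though miR-143 and miR-145 of that list were lower there than on P10 replicates 3 and 4. The leukocyte miR-142-3p was also higher there, at 22.3 and 19.9 units against 7.44 and 10.46 units on P10 replicates 3 and 4. The leukocyte miR-150 was lower there, at 6.91 and 4.41 units against 19.3 and 15.4 units on P10 replicates 3 and 4. All 6 fibroblast and mesenchymal miRNAs were detected on at least 7 of the 8 arrays. The part of such cells in the miR-376b-3p signal was not tested, and in RNA of a whole preparation fewer cells of a type and less RNA per cell cannot be told apart. Its bound against P0 was under 1 over all 8 arrays, so no fold is given. None is given without P0 replicate 1 either, since P10 replicates 3 and 4, which did not detect it, were raised to the floor there. With detection on at least 1 array as the filter, the miRNA entered the test over all 8 arrays, where 0 of 12 members were called. Otherwise it entered only without P10 replicates 3 and 4. Its value in that last fit (1.11) was thus set by which arrays were left out and is given with no test.

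**Figure D3:**
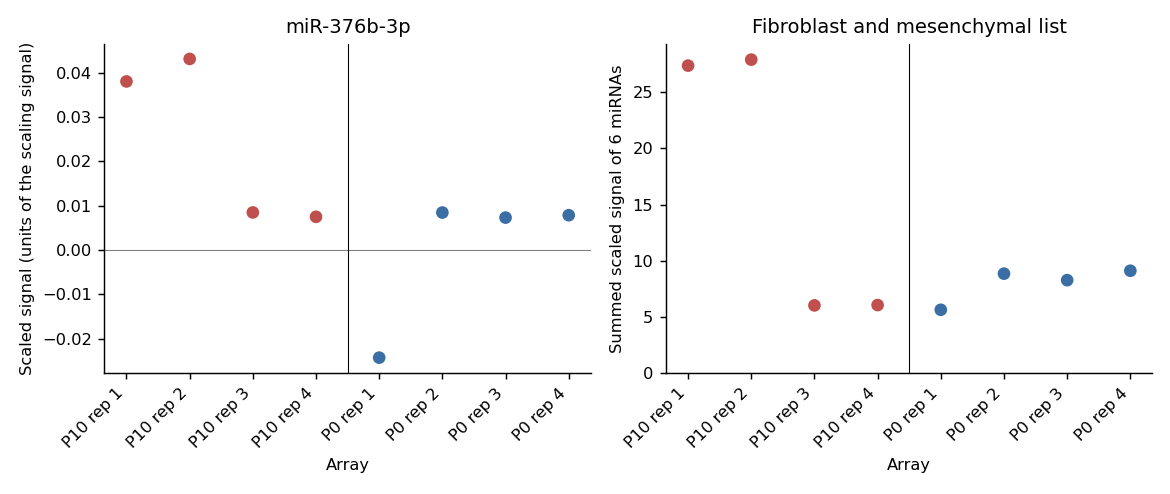
Scaled signal of miR-376b-3p (left, in units of each array's scaling signal) and summed scaled signal of 6 fibroblast and mesenchymal miRNAs (right) on each array, with P10 left of the line and P0 right of it. P10 replicates 1 and 2 stand above the other 6 arrays in both panels, at 0.0381 and 0.0432 for miR-376b-3p and at 27.4 and 27.9 for the list, whose sum is mostly miR-21 and of which miR-143 and miR-145 were lower on those 2 arrays than on P10 replicates 3 and 4.

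The remaining pair, miR-382 and miR-496*, resembled miR-539 over the arrays. The miR-382 probe gave 15.2, 9.12, 12.2 and 6.65 units on P10 arrays 1 to 4, against -1.30, -0.815, 1.58 and 1.63 units on P0 arrays 1 to 4. The miR-496* probe gave 17.6, 9.10, 16.1 and 8.89 units on P10 arrays, against 0.220, -2.78, 3.98 and 0.408 units on P0 arrays. In both the unscaled values of the ages did not overlap, though the share of all probes for which that held was not counted. However, miR-382 was detected on P10 replicate 1 alone and miR-496* on P10 replicates 1 and 3. Their bounds against P0 were under 1, with and without P0 replicate 1.

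This likeness extended to probes outside the cluster, and it was looked for after the values had been seen. Of the 381 probes detected on at least 1 array, 19 had a Pearson correlation above 0.95 with the miR-539 probe over the 8 arrays in unscaled signal, the miR-539 probe itself counted, while the median over the 381 was 0.073. They belonged to 10 miRNAs, the members miR-539 (4 probes), miR-496* and miR-382 and 7 miRNAs from elsewhere: miR-206, miR-465, miR-32*, miR-672, miR-466b, miR-466d and miR-297. The letters ACAC stood in 18 of the 19 probes, all but that of miR-382, searched on the probe strand as written since the probes are single-stranded. The same letters stood in 150 of all 1644 probes (9.12%) and in 41 of the 381 detected ones (10.8%). One probe of each of the 3 members and of 4 of the others is given here, 5′ to 3′ as deposited, because the shared letters are visible only in the probes; capitals mark ACAC and its runs.
miR-539 probe: ACACACcaaggataatt
miR-496* probe: gaACACACcatggaca
miR-382 probe: cgaatccaccacgaac
miR-206 probe: ccACACACttccttac
miR-465 probe: cACACcagcacc
miR-672 probe: tcACACACagtACACcaa
miR-466d probe: acaaaagaacatACACAC

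Muscle miR-206 shows the pattern shared by these probes. It gave 57.0, 35.1, 48.9 and 32.4 units on P10 arrays 1 to 4, against 4.86, 0.0535, 18.9 and 10.703 units on P0 arrays 1 to 4. In the miR-206 and the miR-539 probe alike P10 replicate 1 was the highest array and P0 replicate 2 the lowest. All 3 members with this pattern were among the 6 that were detected at P10 and on no P0 array. The pattern was defined by likeness to miR-539, itself among those 6, so that placement is no separate result. A further member with ACAC in its probes, the undetected miR-493, gave 7.60, 5.11, 6.97 and 4.24 units on P10 arrays 1 to 4, against -0.126, -1.41, 0.721 and -0.363 units on P0 arrays 1 to 4. The other undetected members with ACAC in their probes were miR-154, miR-433, miR-369-5p, miR-543 and miR-494*. Their values overlapped between the ages. The letters alone did not go with the pattern, since 23 of the 41 detected probes that hold them had a correlation of 0.95 or less, and whether the signal of these probes came from the miRNAs they are named for was not tested.

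**Figure D4:**
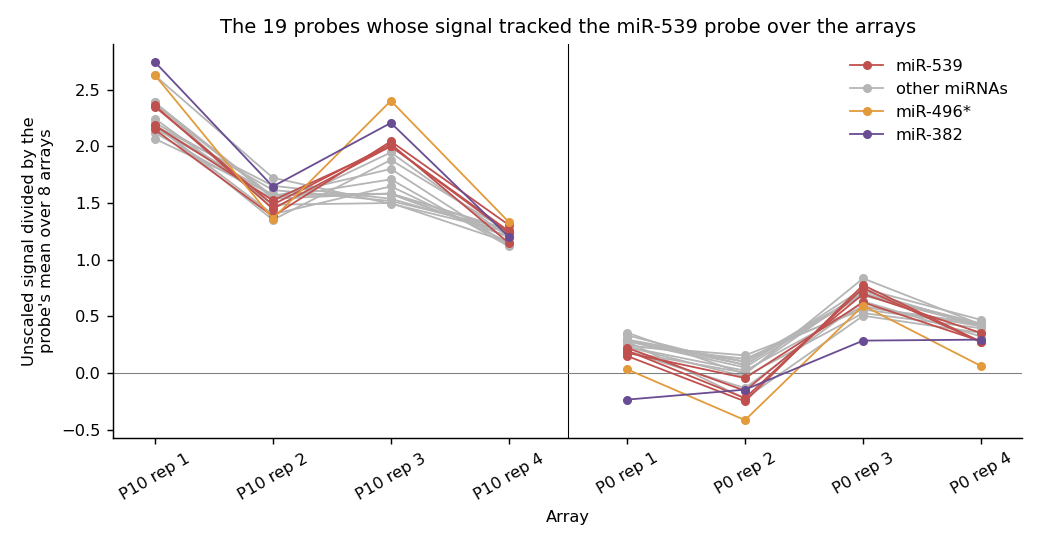
Unscaled signal of the 19 probes with a correlation above 0.95 with the miR-539 probe, each divided by its own mean over the 8 arrays, with P10 arrays left of the line and P0 arrays right of it; colours mark the cluster members and grey the 7 other miRNAs. All lines are higher on each P10 array than on any P0 array, highest on P10 replicate 1, and low on P0 replicates 1 and 2.

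The flat signal of miR-409-3p was set beside the loss of signal on P0 replicate 1, again after the values had been seen. Over the 316 probes detected on at least 4 arrays, the signal on that array was a median of 0.0801 of the median of the other 7 arrays (quartiles 0.0410 and 0.173). The 3 probes of miR-409-3p stood at 0.751, 0.892 and 1.08, those of miR-494 at 0.447 and 0.606, and those of miR-487b at 0.151 and 0.154. Only 13 of the 316 probes were above 0.7. In the array design 5 probes begin with GGGG (0.304% of all), the 3 of miR-409-3p and 2 of miR-223, and all 5 were among the 13, between 0.736 and 1.08. The longest probe of each of the 2 miRNAs is shown for the shared letters, in capitals.
miR-409-3p probe: GGGGttcaccgagc
miR-223 probe: GGGGtatttgacaaactgaca

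Dividing by the low scaling signal of P0 replicate 1 therefore put miR-409-3p, at a log2 of -2.96, above the -5.89 to -5.34 of the other P0 arrays. The unscaled signal of the probe used for its level was the lowest of the 8 there. Its other probes were not lowest on that array, at 15.5 and 14.9 units against lows of 11.8 and 13.99 units. The part of the probes' letters in the miR-409-3p signal was not tested.

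**Figure D5:**
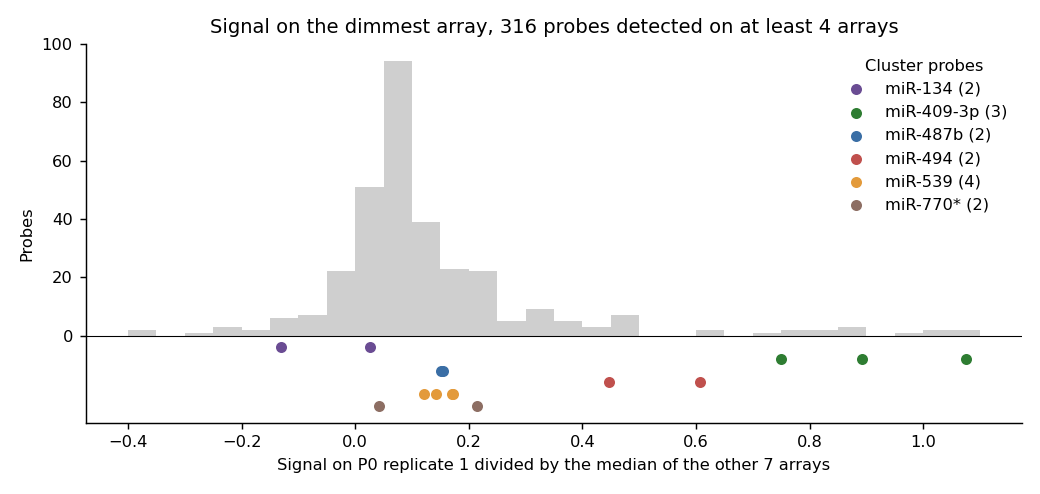
Signal on P0 replicate 1 divided by the median signal of the other 7 arrays, for 316 probes detected on at least 4 arrays (grey bars, number of probes); coloured points under the axis are the cluster's probes, with the number of probes of each miRNA in the key, and their height has no meaning. Most probes lie near the median of 0.0801, and the 3 probes of miR-409-3p lie at 0.751 to 1.08.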

How the data were processed

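The members and lists were chosen with earlier results of these data known. Per the file headers, spot intensities were extracted with Agilent Feature Extraction 10.7.1.1 (also given in the submitters' processing notes) and are background-subtracted, detrended within each array and not scaled between arrays; quality flags are per spot. The authors also deposited a log2 matrix with 1 value per miRNA, whose normalization no label or header names, and a table of spot intensities that differ from the scanner values by at most 0.493%.

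Here, unflagged spots of a probe (5 to 10 for cluster probes) were averaged, and each miRNA was read from its probe of highest mean. Values were scaled and floored as described, and fitted with limma 3.58.1 in R 4.3.3 (lmFit and eBayes, Benjamini-Hochberg over 158 miRNAs). On simulated data for this comparison over 158 miRNAs the script recovered 29 of 32 miRNAs changed by 2 on the log2 scale, with 1 false call. The simulated arrays were drawn independently, with no floor, no dim array and no alike pairs. The recovery therefore does not show how well a smaller change in a member near the floor would be called. No spot was saturated, and the number of arrays limits the precision. P10 replicates 1 and 2 differed by 2.12 times the error expected from their spots and replicates 3 and 4 by 3.62 times, which does not show separate animals; each array was counted as 1 sample as the labels list it, with the averaged pairs as an alternative.

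All members were named, with values for tested members, for members detected on fewer arrays, and for miR-127, miR-134, miR-410 and miR-495; the likeness to miR-539, the probes beginning with GGGG and miR-493 were added after their values were seen. Probe positions are those of the files (rn4); RefSeq (GRCr8) was used for sequences, strands and host genes only. Alternatives covered scaling, background, floor, probe choice, filter, the deposited matrix, arrays left out and the replicate number as a block. Same-numbered arrays did not deviate together over the ages (r of 0.163, -0.154, 0.033 and 0.136), so numbers were not used to pair them.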

Additional observations from a re-analysis of the deposited data

Results flagged for a closer look

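Of 33 sets of 4 arrays examined for a value far from the others, 2 passed Dixon's 95% critical value for the gap to the nearest array over the whole range; chance gives about 1 in 20. For miR-494, P10 replicate 4 stood apart in unscaled signal (ratio 0.887), at 441 units against 166 to 197 on the other P10 arrays. For miR-494 again, P0 replicate 1 stood apart in log2 scaled level (ratio 0.919), at 0.05 against -2.53 to -2.32 on the other P0 arrays. Sets with a value at the floor were not examined.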

How the results depend on the processing

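The count of called members was 0 under 19 of 22 alternatives. It was 1 of 6 with the floor halved (miR-134), where 9 and 7 of 158 miRNAs were called higher and lower. Without P0 replicate 1 it was 2 of 6 (miR-134 higher, miR-770* lower), with 25 and 46 of 168 over all miRNAs. Without P10 replicates 3 and 4 it was 3 of 7 (miR-134, miR-539 and miR-376b-3p higher), with 50 and 26 of 167. Of these, miR-376b-3p entered that fit through the arrays that detected it, so its call is no test. The P10 arrays left there were an alike pair, and the other calls of that fit may reflect a small spread between them, which was not tested. Leaving out 1 array gave 0 to 2 called members, 2 to 25 higher and 2 to 46 lower calls over all miRNAs, and a median difference of the members from -0.32 to 0.21; the highest of each came without P0 replicate 1. Over all miRNAs there were 11 and 0 calls higher and lower without scaling, 0 and 0 with a normexp background (21 at an unadjusted p under 0.05), 5 and 15 with the floor doubled, 6 and 14 with detection on at least 1 array, 2 and 10 with detection on all 8, 1 and 0 in the deposited matrix and 0 and 0 with the P10 pairs averaged (26 at an unadjusted p under 0.05). The median moved to 0.35 without scaling, where that over all miRNAs was also 0.35. In the deposited log2 matrix, which sets undetected values low, it moved to 1.51 over 8 members, and that over all 175 miRNAs tested there was 0.43. Detection on all 4 arrays of the age gave 6 members at P10 and 2 at P0, 1 spot well above background as the condition gave 14 and 11, the scanner's call per miRNA 15 and 12, and leaving out 1 array 10 to 12 and 4 to 6. The counts without a pair of P10 arrays were chosen after seeing the data.

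Signs turned for miR-134 with normexp (-0.21), for miR-409-3p without scaling (0.10) and without P0 replicate 1 (0.11), for miR-487b without scaling (0.30) and without P10 replicates 3 and 4 (0.12), for miR-494 without scaling (0.41), without P10 replicate 3 (0.14), without P0 replicate 1 (0.33) and without P10 replicates 3 and 4 (0.044), and for miR-770* in the deposited matrix (1.01); the causes were not tested. With 1 array left out, miR-409-3p ranged from -0.71 to 0.11 and miR-494 from -0.36 to 0.33. With the replicate number as a block, no pairing being supported, 0 members were called, with 3 and 1 calls over all miRNAs and a median difference of -0.17. Scaling to the percentile over all probes was not run, since that percentile was -0.173 on P0 replicate 1. A slide block could not be fitted on 1 slide. Signals near the lowest detected ones, 11.7 to 19.3 units, limit all members but miR-487b and miR-494.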

Other observations

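Other imprinted loci were detected in part. Of 6 miRNAs from them on the array, miR-335 (in Mest), miR-483 and miR-483* (in Igf2) and miR-298 (near Nespas) were detected, and miR-675 (in H19) and miR-296 were not. Their summed scaled signal was 0.214, 0.203, 0.183 and 0.190 on P10 arrays 1 to 4, against 0.452, 0.284, 0.281 and 0.265 on P0 arrays 1 to 4, so the ages did not overlap. The highest sum was that of the dim P0 array, and miR-335, at a difference of -1.30 (SE 0.43; adjusted p = 0.0877, limma), did not pass the test. The sum does not hold for each of them, since miR-483* had a fitted difference of 0.27 (SE 0.31; adjusted p = 0.578, limma), above 0.

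Among the 381 detected probes, the one whose unscaled signal over the 8 arrays was most like that of miR-376b-3p belonged to miR-193 (r = 0.990), followed by miR-21 (r = 0.979), and the one most like miR-494 to miR-370 (r = 0.931), another member of the cluster. These likenesses were sought after the values had been seen.

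The detection flags in the authors' deposited table, which are per miRNA, marked 16 members on at least 1 array, 15 at P10 and 12 at P0. They included all 12 members detected here and 4 more: miR-3544 on 6 arrays, miR-667 on 2 and miR-433* and miR-1188-3p on 1 each. In the authors' deposited table miR-3544 had log2 values of 3.03, 3.13, 2.43 and 2.78 on P10 arrays 1 to 4, against 6.58, -3.30, 3.24 and -3.16 on P0 arrays 1 to 4, where the values under -3 stand for arrays on which it was not flagged as detected. Its highest signal on any probe and array was 12.2 units.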
